A study of Mus musculus with 9 samples.

Results

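Polycomb repressive complexes silence developmental genes by modifying histones. PRC2 methylates lysine 27 of histone H3 through Ezh1 or Ezh2 together with Eed and Suz12. PRC1 ubiquitinates histone H2A and takes its identity from 1 of the Pcgf proteins, of which Bmi1 is Pcgf4, and in its canonical form it carries a Cbx protein such as Cbx7 that reads the mark left by PRC2. In embryonic stem cells these complexes sit at CpG-rich promoters of lineage genes.

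The expression of 10 genes that encode Polycomb subunits was examined: Bmi1, Pcgf6, Bcor, Kdm2b and Cbx7 of PRC1, and Ezh2, Ezh1, Eed, Suz12 and Jarid2 of PRC2. They were chosen by name, each symbol matched 1 Ensembl gene, and they are 10 of the 37990 genes listed in the count tables. All 10 passed the filter on low counts, as did 14465 genes in all.

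The data are bulk RNA sequencing of E14 cells, a mouse embryonic stem cell line grown on gelatin in serum with the cytokine LIF. All groups were transduced with a pLKO.1 lentivirus, selected with puromycin and passaged before harvest. The 3 Fam60a knockdown libraries carried an shRNA against Fam60a (Sinhcaf in Ensembl), a subunit of the Sin3a-Hdac corepressor complex, the 3 Sin3a knockdown libraries an shRNA against Sin3a, the scaffold of that complex, and the 3 control libraries a scrambled shRNA. The libraries titled T2SC were taken as the scrambled controls because no other title fits them. The labels describe biological replicates, without saying what was kept separate, and do not give the number of hairpins per target. Every value comes from a mixed culture, in which fewer cells of a type and less RNA per cell cannot be told apart.

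Total counts ranged from 5511453 to 7674887 reads in 8 libraries and were 2607872 in replicate 3 of the Sin3a knockdown, so that 3 reads correspond to 0.385 to 1.22 CPM (counts scaled to library size by TMM factors). That Sin3a knockdown library also held 90 mitochondrial reads against 6268 to 7118 in the others, and its genes deviated from replicates 1 and 2 with their GC content, so values without it are given beside the main results. Sinhcaf stood at 13.4, 14.0 and 13.1 CPM in control cells against 5.59, 6.54 and 5.06 CPM after Fam60a depletion, which was 42.5% of the control mean (log2 fold change -1.23 ± 0.23 SE, adjusted p = 0.028 by edgeR's quasi-likelihood test). That call was lost when any library other than Sin3a knockdown replicate 3 was left out (adjusted p 0.051 to 0.133), while the log2 fold change stayed between -1.34 and -1.15. Sin3a stood at 311, 281 and 268 CPM in control cells against 131, 136 and 110 CPM after Sin3a depletion, 43.8% of the control mean (log2 fold change -1.19 ± 0.11, adjusted p = 0.00149, and -1.10 without replicate 3). In the Fam60a knockdown Sin3a stood at 227, 216 and 207 CPM, below every control and at 75.6% of the control mean (log2 -0.40 ± 0.11, adjusted p = 0.0964, and 0.00466 without Sin3a knockdown replicate 3). Summed over 10 embryonic stem cell markers such as Pou5f1, Nanog and Sox2, the level was 1630 to 1800 CPM in control cells, 1390 to 1570 after Fam60a depletion and 1580 to 1730 after Sin3a depletion, and none of the 10 was at 0 in any group. All 10 had a negative log2 fold change after Fam60a depletion (median -0.18, 0 called, where 2.92% of tested genes were called). After Sin3a depletion 6 were negative and 4 positive. Of these 1, Fgf4, was called lower (log2 -0.39 ± 0.10, adjusted p = 0.0335 by edgeR), where 10.2% of genes were called. Without Sin3a knockdown replicate 3, Nanog and Fgf4 were called lower after Fam60a depletion, where 16.9% of genes were called.

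Bmi1 rose in the Fam60a knockdown and Bcor fell in the Sin3a knockdown, and the other members did not pass the test in either comparison with control. Both genes lie in PRC1: Bmi1 is a RING finger partner of the ubiquitin ligase Ring1b in canonical PRC1, and Bcor is a scaffold of the variant complex PRC1.1. The 250 bases before their annotated starts are shown because these are the members whose level passed a test, taken from RefSeq on GRCm38.p6 and read 5′ to 3′ on the strand of the gene. Bmi1 lies on chromosome 2 at 18677018 to 18686629, plus strand, and its window is chr2:18676768-18677017. Bcor lies on chromosome X at 12036740 to 12160355, minus strand, and the window shown, 1 of its 2 annotated starts, is chrX:12160356-12160605. The capitals mark the E-box letters CACGTG, bound in general by Myc, Max and Mxd proteins, the last of which recruit Sin3 complexes.
Bmi1: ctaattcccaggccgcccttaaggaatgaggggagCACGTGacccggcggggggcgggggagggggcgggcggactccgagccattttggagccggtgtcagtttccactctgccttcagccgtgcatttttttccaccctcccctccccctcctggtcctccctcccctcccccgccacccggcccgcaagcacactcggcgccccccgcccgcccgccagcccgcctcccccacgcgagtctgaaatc
Bcor: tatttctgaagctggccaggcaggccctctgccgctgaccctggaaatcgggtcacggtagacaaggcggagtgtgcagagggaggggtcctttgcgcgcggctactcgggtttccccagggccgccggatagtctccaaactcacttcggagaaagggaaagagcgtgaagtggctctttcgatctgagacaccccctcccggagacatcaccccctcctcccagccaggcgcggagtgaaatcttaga
The Bmi1 window held CACGTG at 215 bases before the start (position -215), and Bmi1 was the 1 member of 10 with this motif in any of their 15 windows, against 6.02% of 32851 RefSeq windows of the same length. GGGCGG, the letters of a GC box, was found on either strand in 6 of the 10 members and in 32.7% of all windows. CCAAT was found in 5 members and 33.8% of windows. TTTCCCGC, also searched, was found in 1 member, Suz12, and in 0.895% of windows. The members were counted by gene over all of their 15 windows and the background by single window. The 2 are therefore not measured alike, and no enrichment can be read from them. The Bmi1 window held 21 CpG dinucleotides and the Bcor window 16, against a median of 6 over all windows. These matches describe letters in the windows and no binding was measured. The part of the E-box letters in the Bmi1 result was not tested.

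Bmi1 counted 192, 228 and 246 reads in the control libraries, or 31.3, 33.0 and 36.7 CPM. In the Fam60a knockdown it stood at 55.6, 60.8 and 69.4 CPM, and all 3 of these libraries lay above all 3 controls. The fold change was 1.84 (95% interval 1.38 to 2.46, log2 0.88 ± 0.19, n = 3 against 3, adjusted p = 0.0419 by edgeR). With replicate numbers as a block the adjusted p was 0.0492. Without Sin3a knockdown replicate 3 it was 0.0015, with a log2 fold change of 0.89. The call was lost on leaving out any Fam60a knockdown or control library or Sin3a knockdown replicate 1 (adjusted p 0.0685 to 0.166), with the log2 fold change between 0.79 and 0.97 in every alternative run.

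In the Sin3a knockdown Bmi1 stood at 52.6, 55.3 and 36.6 CPM. Replicates 1 and 2 lay above all controls, and replicate 3 lay beside the highest control. The log2 fold change of 0.53 ± 0.19 did not pass the test (adjusted p = 0.112). Without replicate 3 it was 0.68 with an adjusted p of 0.00504, and with a correction for GC content and all libraries kept it was 0.75 with an adjusted p of 0.0268. The Bmi1 transcript has 40.2% GC, and the 2825 genes of lowest GC content, 29.6% to 44.2%, lay at a median of -0.99 on the log2 scale in that library relative to replicates 1 and 2. Bmi1 lay there at -0.56 and Suz12, at 41.6% GC, at -0.68. Other genes of like GC content lay the other way, Pcgf5 (40.4%) at 0.53 and Sinhcaf (41.4%) at 0.4. The part of GC content in the Bmi1 value was not tested. Between the knockdowns Bmi1 differed by 0.35 on the log2 scale (95% interval -0.06 to 0.77, adjusted p = 0.347), an interval that holds both no difference and a difference near that seen against control.

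**Figure D1:**
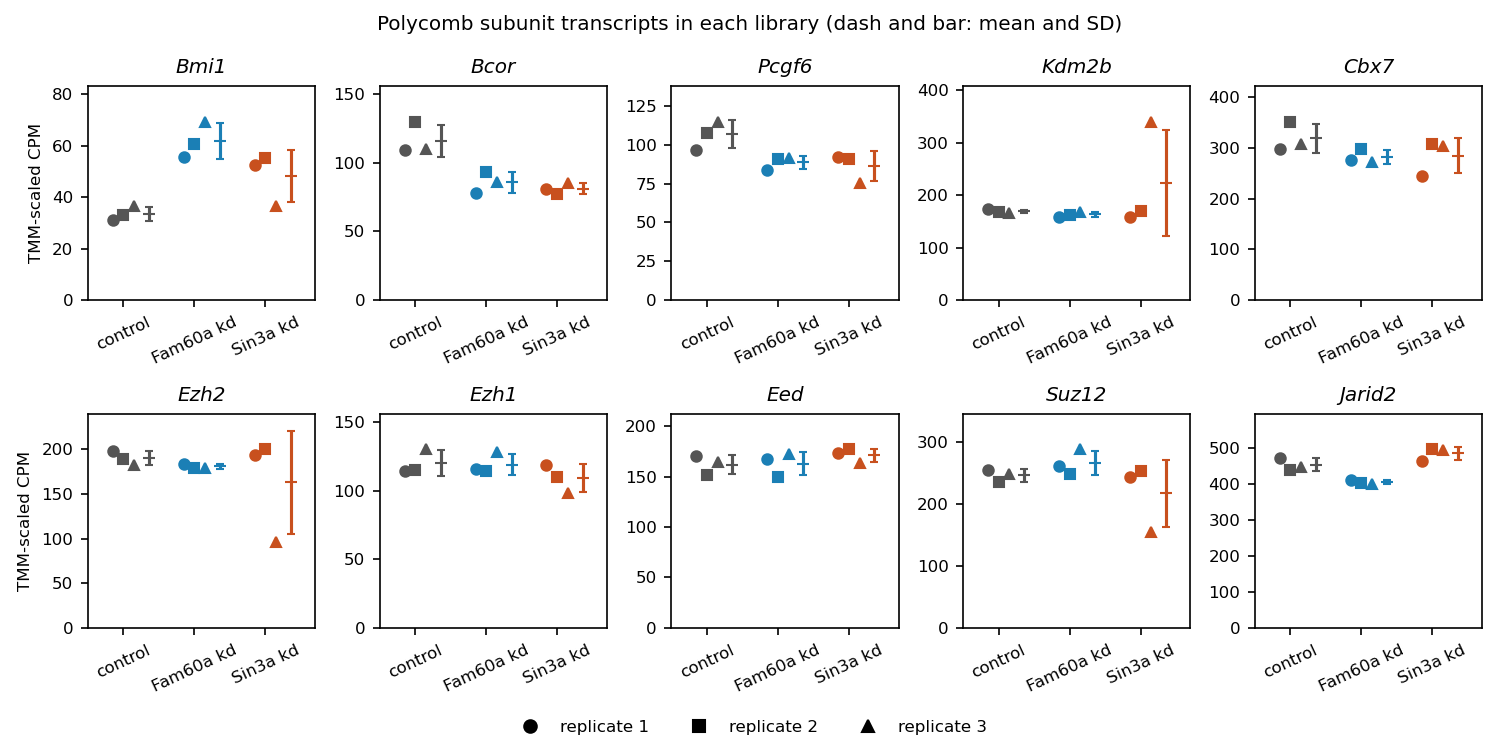
Level of each of the 10 Polycomb members in every library, in TMM-scaled CPM on a vertical axis that starts at 0 and differs between panels. Symbols are libraries by replicate, and the dash and bar beside each group are its mean and SD (n = 3). The 3 Fam60a knockdown libraries lie above the controls for Bmi1 at 55.6 to 69.4 CPM, and Sin3a knockdown replicate 3 stands apart for Kdm2b, Ezh2 and Suz12.

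Bcor stood at 109, 130 and 110 CPM in control cells against 81.0, 77.2 and 85.3 CPM after Sin3a depletion, with no overlap. It fell to 0.698 of the control level (95% interval 0.572 to 0.85, log2 -0.52 ± 0.13, n = 3 against 3, adjusted p = 0.0322 by edgeR). Here replicate 3 of the Sin3a knockdown lay with the other replicates, and without it the log2 fold change was -0.55 with an adjusted p of 0.00698. The call was lost when any other library was left out (adjusted p 0.0501 to 0.191). In the Fam60a knockdown Bcor stood at 78.1, 93.3 and 85.9 CPM, again below every control, with a log2 fold change of -0.44 ± 0.13 that did not pass the test (adjusted p = 0.106, and 0.0157 without Sin3a knockdown replicate 3). The knockdowns differed from each other by 0.08 on the log2 scale (95% interval -0.21 to 0.37, adjusted p = 0.764). Both comparisons use the same 3 control libraries.

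Among the 10 members, 1 rose and 0 fell in the Fam60a knockdown, where 2.92% of all tested genes were called, 423 genes (887 genes, 6.13%, with the replicate block), 1.49% higher and 1.44% lower. After Sin3a depletion 0 rose and 1 fell, where 10.2% of genes were called, 3.91% higher and 6.28% lower. Between the knockdowns 0 members were called by edgeR, with 1 at an unadjusted p under 0.05 and 1 by DESeq2, where 3.06% of genes were called, 443 genes (672 genes, 4.65%, with the block). With 10 members, a share of 1 in 10 is close to the background in the Sin3a knockdown. Without Sin3a knockdown replicate 3, Bmi1 rose and Bcor fell in both knockdowns against control, where 16.9% and 24.5% of genes were called, and Jarid2 was called between the knockdowns, where 14.7% of genes were called. Under other settings DESeq2 called 2, 2 and 1 members in the 3 comparisons (8.16%, 17.3% and 9.21% of all genes), fits of only the 6 libraries compared called 2 and 0 against control (12.8% and 5.25%), and the block without that library called 5, 3 and 1 (39.6%, 47.3% and 36.1%). The median log2 fold change of the members was -0.06 after Fam60a depletion and -0.15 after Sin3a depletion, beside -0.02 and -0.01 over all tested genes.

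Counted by library, the Fam60a knockdown did not overlap the controls for 1 member that was higher (Bmi1; 16.2% of all genes were higher without overlap) and for 4 that were lower (Bcor, Jarid2, Cbx7 and Pcgf6; 18.2% of all genes). The Sin3a knockdown did not overlap the controls for 2 members that were lower, Bcor and Pcgf6 (18.5% of all genes). Between the knockdowns, Bmi1 was higher and Jarid2 lower in the Fam60a knockdown without overlap (13.9% and 11.6% of all genes).

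**Figure D2:**
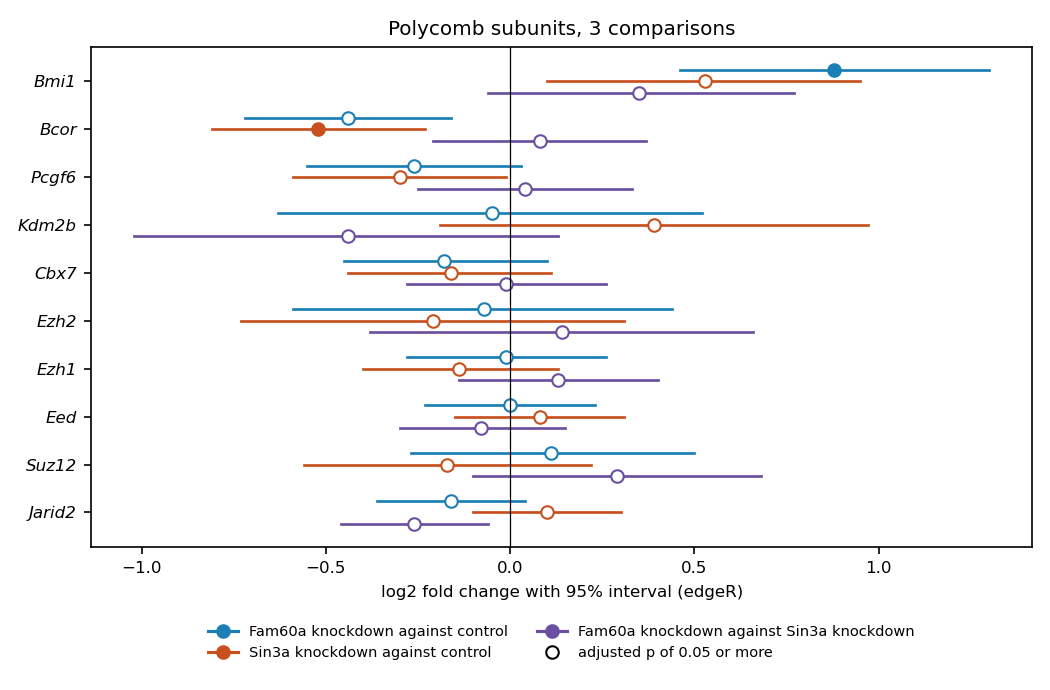
Log2 fold change of each member in the 3 comparisons, with circles for the edgeR estimate, filled where it was called, and lines for its 95% interval. Bmi1 in the Fam60a knockdown (0.88) and Bcor in the Sin3a knockdown (-0.52) are the 2 values that passed an adjusted p of 0.05. Among the PRC2 members, only the interval of Jarid2 between the knockdowns, -0.46 to -0.06, leaves out 0.

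Of the other PRC1 members, Pcgf6 defines the variant complex PRC1.6, which holds germline genes silent in embryonic stem cells. Pcgf6 stood at 96.6, 108 and 115 CPM in control cells, 84.1, 90.7 and 91.5 CPM after Fam60a depletion and 92.4, 91.2 and 75.2 CPM after Sin3a depletion. Both knockdowns lay below the controls in every library, with log2 fold changes of -0.26 ± 0.13 and -0.30 ± 0.13 that did not pass the test (adjusted p = 0.375 and 0.179), and without Sin3a knockdown replicate 3 they were -0.25 and -0.21. Cbx7, the most abundant Polycomb Cbx transcript here, stood at 299, 352 and 307 CPM in control cells, 276, 299 and 273 CPM after Fam60a depletion and 245, 308 and 303 CPM after Sin3a depletion. Cbx7 differed from control by -0.18 ± 0.12 and -0.16 ± 0.12 on the log2 scale, and neither passed the test (adjusted p = 0.608 and 0.427; -0.16 and -0.21 without Sin3a knockdown replicate 3). An exon of Cbx7 shares 100 bases with Apobec3 on the opposite strand.

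Kdm2b binds unmethylated CpG-rich DNA and brings PRC1.1, with Bcor, to its sites. It stood at 173, 168 and 166 CPM in control cells, 159, 162 and 168 CPM after Fam60a depletion and 159, 169 and 340 CPM after Sin3a depletion. The last value was that of replicate 3 alone, and the groups otherwise overlapped. The log2 fold change in the Sin3a knockdown was 0.39 ± 0.26 with that library (adjusted p = 0.375) and -0.04 without it. The Kdm2b locus overlaps Rnf34 by 627 and A930024E05Rik by 199 exon bases on the opposite strand, and its transcript has 52.6% GC.

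The PRC2 members did not pass edgeR's test in any comparison with all libraries kept. Ezh2, the methyltransferase that predominates in dividing cells, stood at 198, 189 and 183 CPM in control cells, 184, 179 and 179 CPM after Fam60a depletion and 194, 200 and 96.7 CPM after Sin3a depletion. Its paralogue Ezh1 stood at 114, 115 and 130 CPM in control cells, 116, 114 and 128 CPM after Fam60a depletion and 119, 110 and 98.3 CPM after Sin3a depletion. The intervals of the Fam60a knockdown against control ran from -0.59 to 0.44 on the log2 scale for Ezh2 and from -0.28 to 0.26 for Ezh1. Without Sin3a knockdown replicate 3, Ezh1 differed from control by -0.07 in the Sin3a knockdown. With Sin3a depleted the Ezh2 log2 fold change was -0.21 ± 0.23, and 0.05 without replicate 3, the library with 96.7 CPM.

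Eed, which binds the methylated histone and activates the enzyme, stood at 170, 152 and 165 CPM in control cells, 167, 150 and 172 CPM after Fam60a depletion and 173, 177 and 164 CPM after Sin3a depletion. Its log2 fold changes were 0.00 ± 0.10 and 0.08 ± 0.10, with 95% intervals of -0.23 to 0.23 and -0.15 to 0.31, and the second was 0.11 without Sin3a knockdown replicate 3. Suz12, the scaffold of PRC2, stood at 254, 235 and 249 CPM in control cells, 262, 248 and 288 CPM after Fam60a depletion and 244, 253 and 155 CPM after Sin3a depletion. Fam60a depletion gave a log2 fold change of 0.11 ± 0.17 and Sin3a depletion one of -0.17 ± 0.17, or 0.02 without replicate 3.

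Jarid2 recruits PRC2 and adjusts its activity. It stood at 472, 437 and 447 CPM in control cells, 410, 402 and 400 CPM after Fam60a depletion and 463, 495 and 493 CPM after Sin3a depletion. The Fam60a knockdown libraries lay below all others, and the Sin3a knockdown overlapped the controls. Between the knockdowns the log2 difference was -0.26 ± 0.09 (adjusted p = 0.157 by edgeR, 0.00617 by DESeq2, and 0.0246 without Sin3a knockdown replicate 3). Against control the Fam60a knockdown gave -0.16 ± 0.09 (adjusted p = 0.449).

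**Figure D3:**
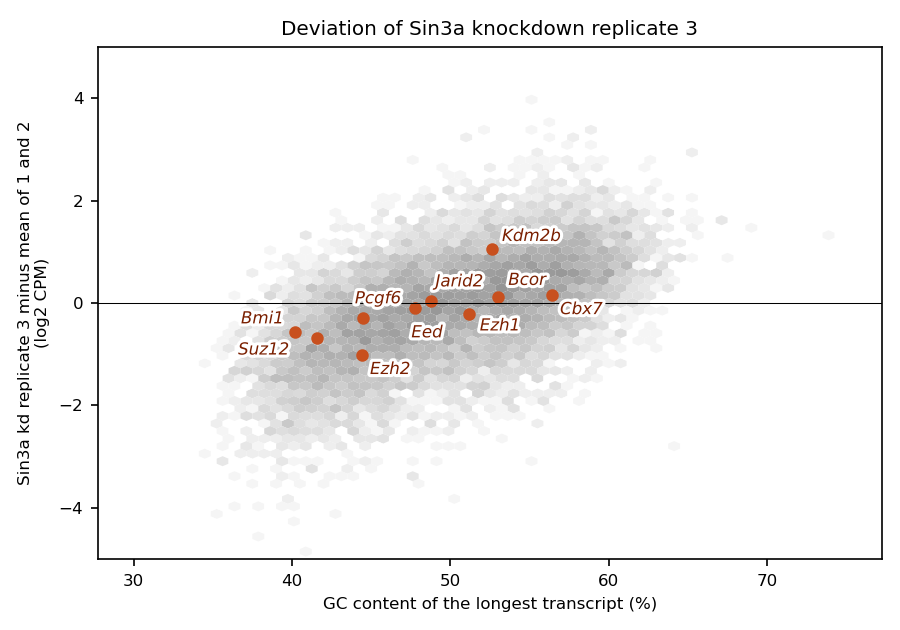
Difference of Sin3a knockdown replicate 3 from the mean of replicates 1 and 2, in log2 CPM, against the GC content of each gene's longest transcript in percent. Grey hexagons are all tested genes with a GC value, darker where more genes fall, and orange points are the 10 members. Bmi1, Suz12 and Ezh2 lie low at 40.2% to 44.4% GC, and Kdm2b lies highest at 1.05.

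Levels can be compared between genes only per length. Per kilobase of annotated exon, the control order was Suz12 at 49.7 ± 2.02 (SD, n = 3), Cbx7 at 49.2 ± 4.38, Jarid2 at 46.5 ± 1.84, Eed at 42.4 ± 2.5, Ezh2 at 28.5 ± 1.16, Pcgf6 at 21.2 ± 1.82, Ezh1 at 16.1 ± 1.24, Kdm2b at 15.6 ± 0.314, Bcor at 13.4 ± 1.37 and Bmi1 at 8.46 ± 0.692 CPM per kilobase. Neighbours whose libraries overlapped were Suz12 and Cbx7, Cbx7 and Jarid2, and Ezh1 and Kdm2b. The order depends on the length used: per kilobase of the longest transcript Eed led at 78.6 ± 4.63 and Ezh2 followed at 68.2 ± 2.78, while Bcor at 16.7 ± 1.71 and Bmi1 at 9.36 ± 0.765 remained lowest. Bmi1 was thus the least abundant member in control cells by both lengths.

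Shares within a family use no scaling between libraries. Bmi1 made up 8.35%, 8.48% and 9.54% of Pcgf transcripts, per exon kilobase, in control cells, 15.7%, 16.2% and 17.7% after Fam60a depletion and 14.0%, 14.2% and 14.1% after Sin3a depletion. All 6 knockdown libraries lay above all controls, and Sin3a knockdown replicate 3, low in Bmi1 by CPM, lay here with the other replicates. A share also depends on the rest of the family. In that library Bmi1 stood at 36.6 CPM, beside 36.7 in the highest control. Relative to replicates 1 and 2, Bmi1 lay at -0.56 on the log2 scale, Pcgf1 at -0.75, Pcgf2 at -0.61, Pcgf3 at -0.93, Pcgf6 at -0.29 and Pcgf5 at 0.53. Its share there thus shows no higher level of Bmi1. The mean differences were 7.72 and 5.28 percentage points, and each reached the smallest p that 3 against 3 allows (two-sided exact permutation p = 0.1, or 0.3 after Benjamini-Hochberg adjustment over 6 shares tested). The direction was the same with longest transcripts (5.98 and 4.07 points). Pcgf2, also called Mel18 and the other Pcgf of canonical PRC1, was 38.6% ± 1.2 (SD, n = 3) of Pcgf transcripts in control cells, 33.3% ± 0.192 after Fam60a depletion and 33.8% ± 0.815 after Sin3a depletion. Cbx7 made up 55.6% ± 2.37 of Polycomb Cbx transcripts in the controls and 57.1% ± 0.937 and 51.6% ± 4.54 in the knockdowns (exact permutation p = 0.4 and 0.3). Ezh1 made up 36.1% ± 2.62 of the Ezh pair in the controls and 37.2% ± 1.59 and 38.7% ± 7.88 in the knockdowns (exact permutation p = 0.6 and 0.8), with 47.7% in Sin3a knockdown replicate 3.

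**Figure D4:**
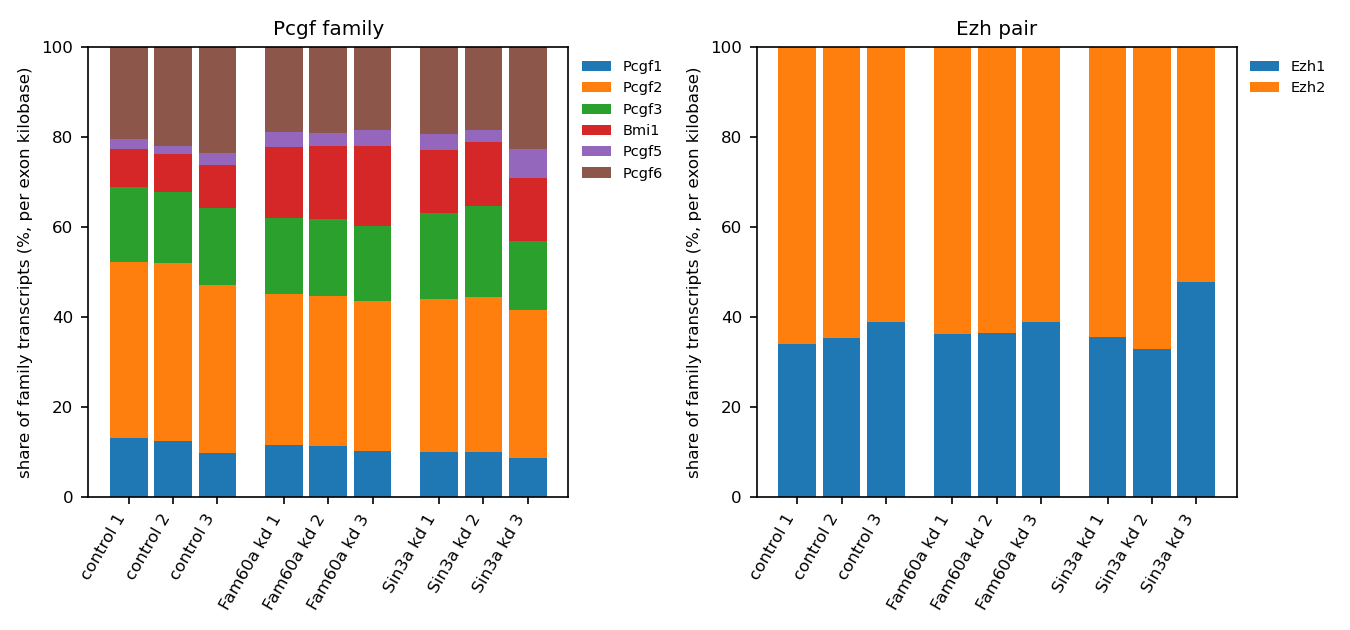
Share of each gene in the transcripts of its family, in percent of reads per exon kilobase within a library, for the 6 Pcgf genes and for Ezh1 and Ezh2. Each stacked bar is 1 library, the libraries stand by group, and colours are genes. Bmi1 takes 8.35% to 9.54% of Pcgf transcripts in the controls and 14.0% to 17.7% in the 6 knockdown libraries, and Ezh1 takes the most of its pair, 47.7%, in Sin3a knockdown replicate 3.

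The further genes of the Polycomb complexes were read from lists of subunits and partners, of which 63 genes were listed and tested, 53 of them not members. In the Fam60a knockdown 0 of the 53 were called by edgeR, where 2.92% of all tested genes were called (9 at an unadjusted p under 0.05, as were 15.7% of all tested genes). After Sin3a depletion 1 rose and 0 fell, where 10.2% of all genes were called (9 at an unadjusted p under 0.05, as were 25.9% of all genes). Between the knockdowns 0 were called, where 3.06% of all genes were called (6 at an unadjusted p under 0.05, as were 18.1% of all genes). The gene that rose was Kdm6b, a demethylase that removes the PRC2 mark, at 158, 159 and 176 CPM in control cells against 258, 260 and 315 CPM after Sin3a depletion (log2 0.76 ± 0.11, adjusted p = 0.00535), and it was called in all 18 alternatives run. After Fam60a depletion Kdm6b stood at 193, 201 and 209 CPM, also above every control, without passing edgeR's test (log2 0.29 ± 0.11, adjusted p = 0.227). Without Sin3a knockdown replicate 3 that adjusted p was 0.0121. Pcgf5, the Pcgf of PRC1.5, stood at 26.9, 20.8 and 30.7 CPM in control cells, 38.2, 35.9 and 44.4 CPM after Fam60a depletion and 40.1, 32.3 and 52.0 CPM after Sin3a depletion. Pcgf5 lay above the controls in all 6 libraries without passing the test (log2 0.60 and 0.66, adjusted p = 0.222 and 0.104), and in the Sin3a knockdown it passed with the replicate block (adjusted p = 0.0267). Cbx2, the Cbx second to Cbx7 here, stood at 96.6, 95.3 and 90.9 CPM in control cells against 68.3, 64.3 and 50.9 CPM after Fam60a depletion (log2 -0.62 ± 0.14, adjusted p = 0.0546, and 0.0284 with the block). Without Sin3a knockdown replicate 3, 7 of the 53 rose and 6 fell in the Fam60a knockdown, 8 rose and 2 fell in the Sin3a knockdown, and 3 rose and 4 fell between the knockdowns, where 16.9%, 24.5% and 14.7% of all genes were called.

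Lists of genes that Polycomb complexes hold silent were read beside the members. Of 68 developmental genes listed, 41 passed the filter, and some could pass only through a group where they were high, so no median is given. In the Fam60a knockdown 2 rose and 2 fell, where 2.92% of all tested genes were called. With the block 7 rose and 2 fell, where 6.13% were called. Of the risers with the block 3, Gata6, Sox17 and Foxa2, were also among the primitive endoderm markers below. Cdx4, a caudal-type homeobox gene, had 14 reads over the controls, 78 over the Fam60a knockdown and 13 over the Sin3a knockdown (Fam60a knockdown against control log2 2.38 ± 0.47, adjusted p = 0.0328 by edgeR). Cdx4 passed the filter only through the Fam60a knockdown, where it was high, so its call gives no independent support. The Cdx4 call was lost without any single library except Sin3a knockdown replicates 2 and 3 and control replicate 3 (highest adjusted p 0.166). Also called, and named after their values were seen because they averaged under 2 CPM, were Lhx9 with 4 reads over the controls and 41 over the Fam60a knockdown, and Olig1 with 38 and 6. Lhx9 passed the filter only through the Fam60a knockdown and Olig1 only through the controls, the groups where they were high, so the same limit holds. In the Sin3a knockdown 1 rose and 2 fell (6 rose and 2 fell with the block, 4 of the risers, Gata4, Gata6, Sox17 and Foxa2, being such markers). Gata6, a regulator of primitive endoderm, rose (log2 1.29 ± 0.30, adjusted p = 0.029, lost without any library except Fam60a knockdown, Sin3a knockdown or control replicate 3, highest 0.108), and Pax6 fell (log2 -2.74 ± 0.30, adjusted p = 0.00202). Gata6 stood at 57.0, 61.0 and 137 CPM in control cells and 208, 195 and 221 CPM after Sin3a depletion. After Fam60a depletion Gata6 stood at 195, 171 and 211 CPM, also above every control (log2 1.18 ± 0.30, adjusted p = 0.0792 by edgeR). Between the knockdowns it differed by -0.11 on the log2 scale (95% interval -0.78 to 0.56). Without Sin3a knockdown replicate 3, 6 rose and 4 fell of 42 tested after Fam60a depletion, and 7 rose and 4 fell after Sin3a depletion, beside 16.9% and 24.5% called over all genes.

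The germline genes of PRC1.6, the complex of Pcgf6, were tested for 26 of 26 genes. In the Fam60a knockdown 0 were called by edgeR, where 2.92% of all genes were called (9 at an unadjusted p under 0.05, as were 15.7% of all genes). With the block 1 rose and 2 fell, where 6.13% of all genes were called. Without Sin3a knockdown replicate 3, 2 rose and 6 fell, where 16.9% of all genes were called. With Sin3a depleted 2 rose and 1 fell (2 and 2 with the block, and 6 and 1 without its replicate 3, where 24.5% of all genes were called). Those called without the block and with all libraries were Slc25a31, a mitochondrial carrier of the male germline (10.2 ± 2.18 to 38.2 ± 3.28 CPM, log2 1.90 ± 0.23, adjusted p = 0.0024), Taf7l, a germ cell form of a general transcription factor (9.62 ± 0.979 to 38.8 ± 5.13 CPM, log2 2.01 ± 0.28, adjusted p = 0.00425), and Majin, which ties meiotic telomeres to the nuclear envelope (12.1 ± 0.304 to 1.74 ± 0.829 CPM, log2 -2.69 ± 0.46, adjusted p = 0.00928). All 3 were called in each of the 18 alternatives run.

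Markers of other cell types were also read. Summed over 12 primitive endoderm markers, the level was 1480, 1810 and 3150 CPM in control cells, 2900, 2870 and 4080 CPM after Fam60a depletion and 3380, 3300 and 6380 CPM after Sin3a depletion, and none of the 12 was at 0 in any group. The part of these cells in the Bmi1 and Bcor results was not tested. Summed over 11 fibroblast markers the level was 37.6 to 87.2 CPM in control cells, 28.1 to 37.5 CPM after Fam60a depletion and 17.1 to 52.4 CPM after Sin3a depletion. Twist2 and Prrx1 were at 0 reads in the controls, Dcn in the Fam60a knockdown, and Postn, Dcn, Lum and S100a4 in the Sin3a knockdown.

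The protein-coding genes whose pattern over the 9 libraries was most like that of Bmi1, by root mean square difference in log2 CPM relative to the control mean, were 4930402H24Rik at 0.102, Tirap, an adaptor of Toll-like receptors, at 0.104, Reep3 at 0.124, Ccdc93, a subunit of an endosomal recycling complex, at 0.128 and Lgals8, a galectin, at 0.135, where the median over 13433 genes was 0.713. They were chosen for this likeness, which fixes their fold changes, so no test is given.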

How the data were processed

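Members and gene lists were chosen with earlier results of these data known. The authors deposited 1 table of raw counts per library, whole reads per Ensembl gene without normalization. Per the submitters' processing notes, STAR 2.4.0j, Picard and featureCounts were used. The sources used here name no genome build. Per the labels' protocols, libraries were TruSeq stranded, 50-base single-end. Symbols, lengths and GC came from GENCODE M21 on GRCm38, which matched 32918 of 37990 genes and 99.342% to 99.448% of reads. Promoters came from RefSeq.

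Low counts were removed with filterByExpr. TMM scaling and 1 quasi-likelihood model of the 3 groups over all 9 libraries were run in edgeR 4.0.16 (R 4.3.3, limma 3.58.1), tested on simulated data, with Benjamini-Hochberg adjustment over 14465 genes and a threshold of 0.05. The biological coefficient of variation was 0.25. Intervals are 95%. Log2 CPM used a prior count of 2, and the GC correction a loess offset of span 0.3. A floor of 3 counts was used where a group had no reads. Precision follows depth, 2607872 to 7674887 reads. Shares were tested by exact permutation.

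Samples with the same replicate number deviated together. Each of the 9 same-number correlations lay between 0.178 and 0.622, and those of different numbers between -0.448 and 0.113. The numbers were therefore used as a block, but only in the runs named with the block. The main model, its intervals and adjusted p, and the exact permutation tests of the shares did not use this pairing. The labels do not say what a number marks.

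Named genes were the members, the targeted genes, called genes of the complex lists with the Pcgf, Cbx and Ezh families, up to 4 called risers and fallers of the target lists averaging at least 2 CPM, and the 5 protein-coding genes most like Bmi1. Alternatives were DESeq2 1.42.0, other scalings, no filter, only the 6 libraries compared, the block, the GC correction, other lengths for shares, each library left out, and, chosen after seeing the data, the block without Sin3a knockdown replicate 3. Sox1, Ezhip and Tdgf1-ps were not analysed here. Results of some listed genes are not reported here.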

Additional observations from a re-analysis of the deposited data

Results flagged for a closer look

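Outside the members, 4 genes of the lists differed between the knockdowns by edgeR's test of the difference itself. Pax6 was higher in the Fam60a knockdown by 1.95 on the log2 scale (9.14 against 2.26 CPM, adjusted p = 0.0157). The control mean of Pax6 was 15.8 CPM, and both knockdowns lay below every control (log2 -0.79 ± 0.26 and -2.74 ± 0.30). Thy1 was higher in the Fam60a knockdown by 1.82 (25.1 against 6.87 CPM, adjusted p = 0.0183), beside a control mean of 24.7 CPM. Slc25a31 had a log2 difference of -1.08 (18.1 against 38.2 CPM, adjusted p = 0.0373). The control mean of Slc25a31 was 10.2 CPM, and both knockdowns lay above every control (log2 0.83 ± 0.22 and 1.90 ± 0.23). S100a4 had 48 reads over the Fam60a knockdown and 0 over the Sin3a knockdown, at least 11.5-fold higher against a floor of 3 reads over the group. It had 4 reads over the controls. Its fitted log2 value of 6.85 (adjusted p = 0.0166 by edgeR) depends on the prior count. S100a4 passed the filter only through the Fam60a knockdown, where it was high, so its call gives no independent support. With only the 6 libraries compared, none of the 4 passed (adjusted p 0.0992 for Pax6, 0.102 for Thy1, 0.111 for Slc25a31 and 0.109 for S100a4). In that setting 0 of all 13843 tested genes passed, so the loss is not particular to these 4. The calls of Pax6, Thy1 and S100a4 were also lost without Fam60a knockdown replicate 1 or 2 or Sin3a knockdown replicate 1 or 2, and that of Slc25a31 without any library other than Sin3a knockdown replicate 3 and control replicate 2.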

How the results depend on the processing

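Counts of called genes for the Fam60a knockdown against control, the Sin3a knockdown against control and the knockdowns against each other, in that order, were 1181, 2507 and 1332 with DESeq2, 1827, 739 and 0 with only the 6 libraries compared (for the last, 1760 at an unadjusted p under 0.05), 887, 2164 and 672 with the replicate block, 736, 2136 and 820 with the GC correction, 1705, 3362 and 1605 with both, and 5842, 6975 and 5321 with the block and Sin3a knockdown replicate 3 left out. Leaving out 1 library at a time gave 11 to 2495, 521 to 3606 and 48 to 2166, the highest without Sin3a knockdown replicate 3 and the lowest without control replicate 1, control replicate 2 and Fam60a knockdown replicate 2. Members called in the Fam60a knockdown were 2 with DESeq2, with the 6 libraries and with GC correction plus block, and 5 with the block and replicate 3 left out. In the Sin3a knockdown they were 2 with DESeq2, with GC correction and with GC correction plus block, 0 with no filter and with the 6 libraries, and 3 with the block and replicate 3 left out. Between the knockdowns 1, Jarid2, was called with DESeq2 and with the block and replicate 3 left out. Leaving out 1 library gave 0 to 2, 0 to 2 and 0 to 1 members. The Sinhcaf call was lost with no filter (-1.189), GC correction (-1.232) and GC correction plus block (-1.223), and without 1 library ranged from -1.335 to -1.147; Sin3a ranged from -1.214 to -1.088.

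Bmi1 share differences were 5.97 and 3.61 points from raw reads and 5.98 and 4.07 with longest transcripts, and 7.14 to 8.13 and 5.06 to 5.65 without 1 library. Cbx7 share differences were -0.671 from raw reads in the Fam60a knockdown, and 0.591 to 2.8 and -6.63 to -2.5 without 1 library. Those of Ezh1 were 0.0143 to 2.54 and -1.88 to 5.47.

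Signs turned, all at log2 values that were not called. Ezh1 in the Fam60a knockdown was 0.035 with no filter, 0.003 with 6 libraries, 0.006 with GC correction, with or without block, 0.014 and 0.028 without Fam60a knockdown replicates 1 and 2, 0.017 and 0.003 without Sin3a knockdown replicates 2 and 3, 0.084 without control replicate 3 and 0.005 with the block and replicate 3 left out. Eed there was -0.013 with upper-quartile scaling, -0.005 and -0.006 with GC correction without and with block, -0.013 and -0.036 without Fam60a knockdown replicates 1 and 3 and -0.026 without control replicate 2. Without Sin3a knockdown replicate 3, and then with the block too, Ezh2 was 0.051 and 0.036, Suz12 0.017 and 0.053 and Kdm2b -0.042 and -0.035 in the Sin3a knockdown; between knockdowns Ezh2 was -0.113 and -0.099, Cbx7 0.047 and 0.075 and Pcgf6 -0.038 and -0.082. Cbx7 there was also 0.02 with upper-quartile scaling, 0.006 with no filter, 0.007 and 0.013 without Fam60a knockdown replicates 1 and 3 and 0.02 without Sin3a knockdown replicate 2, and Pcgf6 was -0.057 and -0.058 with GC correction without and with block. The extremes without 1 library not yet named were 0.062 for Eed in the Fam60a knockdown, -0.347 for Ezh2, -0.26 for Suz12 and 0.611 for Kdm2b in the Sin3a knockdown, and 0.287 for Ezh2, -0.109 for Cbx7 and 0.093 for Pcgf6 between the knockdowns. The replicate block alone changed no member's call. The cause was not tested. Levels under 0.385 to 1.22 CPM could not be told from 0 at this depth.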

Other observations

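Cdkn2a and Cdkn2b, the cell cycle inhibitors known as classic targets of Bmi1, were looked at after their values were seen. Cdkn2a stood at 23.5, 17.8 and 18.3 CPM in control cells, 22.8, 17.8 and 18.7 CPM after Fam60a depletion, where Bmi1 rose, and 23.6, 18.4 and 55.2 CPM after Sin3a depletion. The Fam60a knockdown overlapped the controls, with a log2 fold change of -0.01 ± 0.38 (95% interval -0.86 to 0.85, adjusted p = 1.0 by edgeR). The Sin3a knockdown differed by 0.68 with replicate 3 (adjusted p = 0.3) and by 0.09 without it. Cdkn2b stood at 5.70, 4.77 and 4.62 CPM in control cells, 5.74, 5.65 and 5.69 CPM after Fam60a depletion and 8.38, 8.36 and 29.2 CPM after Sin3a depletion. The Sin3a knockdown libraries lay above the controls for Cdkn2b (log2 1.56 ± 0.49, adjusted p = 0.0775, or 0.74 with an adjusted p of 0.0448 without replicate 3).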
